A study of Mus musculus with 8 samples.

Results

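The spliceosome and the proteins that regulate splicing were read in R1 mouse embryonic stem cells kept either with leukaemia inhibitory factor (LIF) or in sodium butyrate. They were chosen by gene name on the array: the Snrp genes from a to g, without Snrpn, the hnRNP genes, the Sf3a and Sf3b genes, the SR genes under their names Sfrs or Srsf, and U2af1, U2af2, Ptbp1, Ptbp2, Mbnl1, Mbnl2, Mbnl3, Rbfox2, Esrp1 and Esrp2. These names matched 133 of 41174 non-control probes, which stand for 61 of 27669 genes. The array carries no probe named Rbfox2, Esrp1 or Esrp2, and the splicing list further down gives the values of these genes under their older names. Of the 61 genes, 60 had a probe that stood well above background in the LIF or the butyrate channel on 3 or 4 of the 4 arrays. These 60 were tested, and Hnrnpul2 was not.

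The series holds 8 samples of total RNA from R1 cells, a line derived from the early mouse embryo, cultured on gelatin with serum replacer in the medium. LIF, the cytokine that holds such cells undifferentiated, was given to 4 samples without feeder cells, and the other 4 had no LIF but sodium butyrate at 0.2 mM over 15 passages, a fatty acid known as an inhibitor of histone deacetylases. Each of 4 Agilent mouse arrays of 2 colours carried the LIF sample (Cy3) and the butyrate sample (Cy5) of 1 replicate number. No array had the dyes swapped, and dye and treatment therefore cannot be told apart. Both groups are 1 line, and the labels call the replicates independent without naming a separate derivation, so a p-value here reflects sample-to-sample spread that may in part be technical. The question was how RNA levels in butyrate differed from those in LIF.

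Splicing removes introns from a pre-mRNA in a particle of small nuclear RNAs and proteins. A ring of Sm proteins holds each small nuclear RNA, U2AF and the SF3A and SF3B parts of the U2 particle mark the branch point and the 3′ splice site, and SR proteins and hnRNPs bind exons and introns and favour or hinder the use of a site. Muscleblind (Mbnl), Ptbp, Rbfox and Esrp proteins shift the choice of exons between cell types, and Mbnl proteins are known for holding back exons that are typical of embryonic stem cells.

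Values are log2 ratios of butyrate over LIF, so 1 is a doubling, with the SD over 4 arrays. A gene is read from its brightest tested probe. Of the 60 genes, 46 passed an adjusted p of 0.05 in limma's fit over all genes, a share of 76.7% against 75% of all 17189 genes tested. Of these, 22 were higher in butyrate and 24 lower, and the same calls over all genes were 41.7% and 33.3%. The median ratio of the 60 genes was −0.00 and that of all genes 0.03. The median size of a ratio, sign aside, was 0.22 against 0.25 for all genes. Read against the background, the number of splicing genes that passed is near the share elsewhere on the array.

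The changes were mostly small. Of the 46 genes that passed, 37 changed by less than 1.5-fold. Beyond that fold lay 6 higher genes (12.9% of all genes tested) and 3 lower ones (7.39%). The lower ones include Hnrnpab, read from a saturated probe, and without genes read from saturated probes 6 higher and 2 lower ones remained. At least 2-fold higher were Mbnl3 and Hnrnph1 (4.97% of all genes), and no splicing gene was at least 2-fold lower (1.97%). The levels of the 4 butyrate samples did not overlap those of the 4 LIF samples for 44 of the 60 genes, against 67.9% of all genes tested. The 14 genes that did not pass had ratios between −0.08 and 0.08.

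The sign of a small ratio depends on the scaling. Loess sets the centre of each array along its intensity, whereas centring each array on its median without loess moved the median of all genes from 0.03 to 0.40. With median centring 39 of the 60 genes passed, 39 higher and 0 lower, where 56.7% of all genes were higher and 4.64% lower. Splicing genes are bright: their median log2 signal was 12.8 against 8.91 for all genes. Relative to the median of all genes, 50 of the 60 genes lay on the same side under both scalings. The split was 17 higher and 28 lower with the log ratio computed by the scanner software, and 15 and 26 with the authors' value table. Directions given here are those of the loess scale, relative to its centre.

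**Figure D1:**
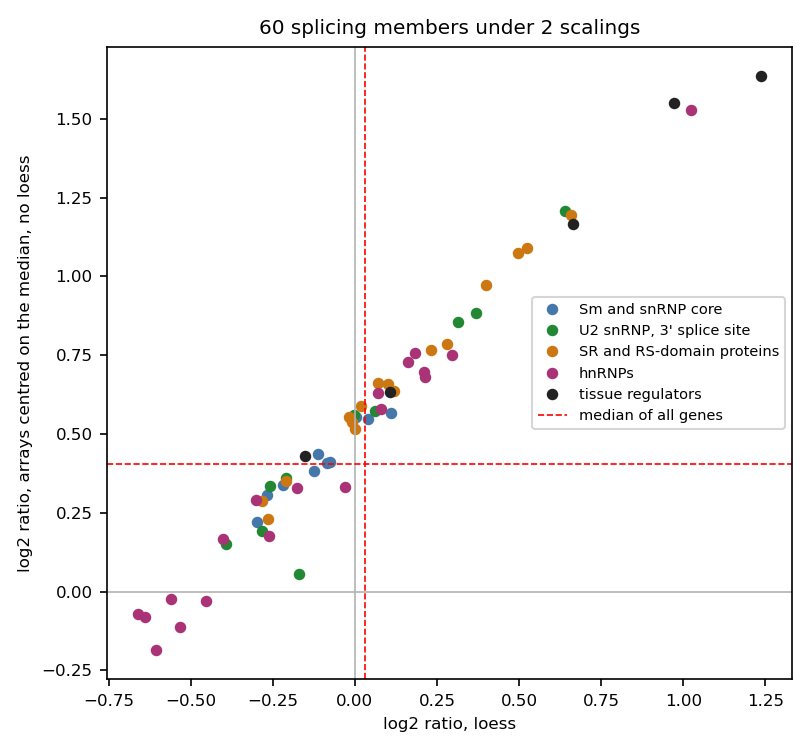
Log2 ratio of the 60 tested splicing genes with loess (horizontal axis) against that with each array centred on its median (vertical axis), each point being 1 gene in the colour of its role, with dashed lines at the median of all genes tested. The points run from Hnrnpa0 at −0.66 to Mbnl3 at 1.24 with loess, and genes with negative ratios down to about −0.40 turn positive with median centring, while 50 of 60 keep their side of the dashed lines.

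The tissue regulators held the largest increase. All 3 muscleblind genes rose. With median centring Mbnl1, Mbnl2 and Mbnl3 lay 0.76, 1.14 and 1.23 above the median of all genes. Mbnl3 had ratios of 1.27, 0.79, 1.37 and 1.52 on arrays 1 to 4 and was 2.36-fold higher (1.24 ± 0.31, adjusted p = 1.35e-05). Array 2 was the lowest and was still far above 0. Mbnl2 had ratios of 1.03, 1.04, 0.96 and 0.85 and was 1.96-fold higher (0.97 ± 0.087, adjusted p = 4.13e-07). Mbnl1, the most widely expressed member of the family, had ratios of 0.85, 0.63, 0.62 and 0.56 and was 1.59-fold higher (0.67 ± 0.13, adjusted p = 9.02e-06). In none of the 3 genes did butyrate and LIF samples overlap: the log2 signal of Mbnl3 was 6.78 to 7.40 in LIF and 8.19 to 8.30 in butyrate, that of Mbnl2 8.73 to 8.90 and 9.70 to 9.90, and that of Mbnl1 7.93 to 8.02 and 8.50 to 8.79. The brightest probe of each was well above background in both channels on the 4 arrays. Mbnl1 and Mbnl3 rest on 1 tested probe each. The other Mbnl3 probe, annotated with the same reference transcript, was well above background on 0 of 4 arrays in both channels. The further Mbnl1 probes, annotated with cDNA records, reached that level on at most 1 array per channel. Mbnl2 had 3: the second brightest rose by 0.80 ± 0.10, and the dimmest, annotated with a separate cDNA record, had a ratio of 0.02 ± 0.094 and did not pass (adjusted p = 0.755).

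The Ptbp genes moved little, and their probes disagreed. Ptbp1, the polypyrimidine tract-binding protein that represses neuronal exons, had ratios of 0.08, 0.13, 0.12 and 0.09 (0.11 ± 0.023, adjusted p = 0.0189), all of them positive and small. Its call is lost without array 2 (0.097, adjusted p = 0.0597) or array 3 (0.10, adjusted p = 0.0823), its ratio was −0.039 in the authors' value table, and its second probe read −0.36 ± 0.15 (adjusted p = 0.000482 over probes). Ptbp2, its neuronal paralogue, had ratios of −0.09, −0.10, −0.19 and −0.23 (−0.15 ± 0.069, adjusted p = 0.00723) on the loess scale and 0.43 with median centring. Its other probes, both annotated with cDNA records other than that of the brightest, read 0.49 ± 0.27 (adjusted p = 0.00132) and 0.14 ± 0.14, the latter well above background on no LIF array and so tested only through its butyrate channel. No direction is therefore given for either Ptbp gene as a whole.

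**Figure D2:**
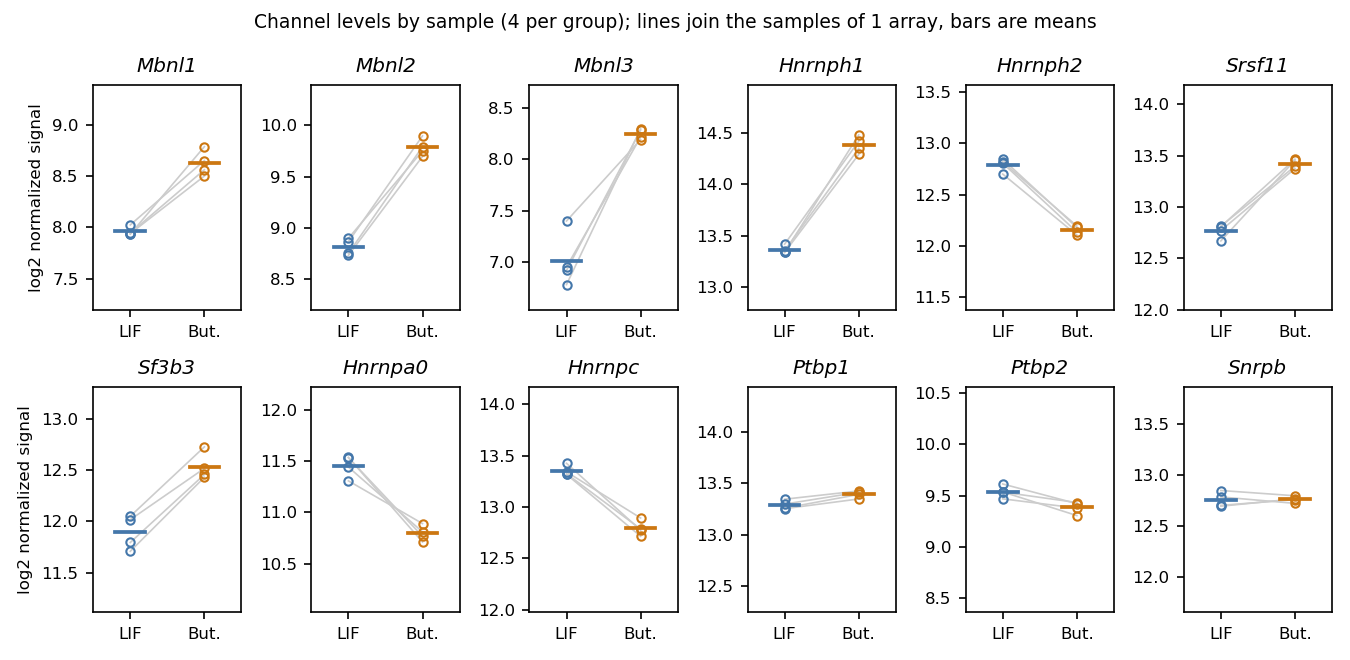
Log2 normalized signal of 12 splicing genes in each of the 4 LIF samples (blue) and the 4 butyrate samples (orange), with lines joining the samples of 1 array and bars at the means. The panels have the same span of log2 units but their own range, so heights are not compared between genes; LIF and butyrate samples lie apart for Mbnl1, Mbnl2, Mbnl3 and Hnrnph1 and overlap for Snrpb.

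The hnRNPs went both ways on the loess scale. Of 19 tested, 6 rose, 10 fell and 3 did not pass, with a median of −0.18 and 3 of the decreases read from saturated probes, while with median centring 9 passed, 9 higher and 0 lower, with a median of 0.33 under the 0.40 of all genes. The closest pair in the family went opposite ways. Hnrnph1, which binds runs of G, had ratios of 1.14, 1.003, 0.996 and 0.95 and was 2.03-fold higher (1.02 ± 0.083, adjusted p = 2.93e-07). Hnrnph2, its paralogue on the X chromosome, had ratios of −0.59, −0.63, −0.66 and −0.67 and was 1.56-fold lower (−0.64 ± 0.036, adjusted p = 1.15e-06), or −0.079 with median centring. Each has 1 tested probe, and LIF and butyrate samples did not overlap in either: the log2 signal of Hnrnph1 was 13.34 to 13.42 in LIF and 14.29 to 14.48 in butyrate, and that of Hnrnph2 12.70 to 12.85 and 12.11 to 12.19. Whether a probe also takes up the transcript of the other gene was not tested, since probe sequences were not used here. A further related gene, Hnrnph3, did not pass (−0.03 ± 0.017, adjusted p = 0.414), read from 1 dim probe with a log2 signal of 7.50.

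The other named increases among the hnRNPs were small. Hnrnpu, a scaffold of nuclear matrix and chromatin, had ratios of 0.31, 0.35, 0.36 and 0.17 (0.29 ± 0.089, adjusted p = 0.000346), and its second probe rose too, by 0.45 ± 0.15. Hnrnpm, which binds GU-rich RNA, had ratios of 0.31, 0.23, 0.21 and 0.10 (0.21 ± 0.087, adjusted p = 0.00197). Hnrnpa1, a repressor that opposes SR proteins at many exons, had ratios of 0.28, 0.14, 0.24 and 0.19 (0.21 ± 0.060, adjusted p = 0.00108). Of its 3 other probes, 1 read 0.52 ± 0.065, 1 read −0.15 ± 0.047 and 1 did not pass at −0.05 ± 0.14. In the authors' value table the ratios of Hnrnpm and Hnrnpa1 were 0.090 and 0.092 and did not pass.

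Among the decreases, Hnrnpa0, which binds AU-rich RNA, had ratios of −0.63, −0.77, −0.82 and −0.42 and was 1.58-fold lower (−0.66 ± 0.18, adjusted p = 3.67e-05). Its second probe fell as well, by 0.89 ± 0.17 on the log2 scale. Hnrnpc, which binds U-rich tracts, had ratios of −0.60, −0.54, −0.45 and −0.65 and was 1.48-fold lower (−0.56 ± 0.087, adjusted p = 7.63e-06), and its second probe fell by 0.28 ± 0.060. In both genes all arrays were negative and LIF and butyrate samples did not overlap. With median centring these 2 genes kept a negative ratio, −0.070 and −0.023, but did not pass against 0, and lay 0.48 and 0.43 below the median of all genes.

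For 3 further hnRNP genes the brightest probe was saturated and gives no usable fold. The probe of Hnrnpab reached saturation on all 4 arrays in both channels, that of Hnrnpa3 on 4 arrays in butyrate and 1 in LIF, and that of Hnrnpk on 4 arrays in butyrate. Their measured ratios were −0.61 ± 0.10, −0.53 ± 0.061 and −0.45 ± 0.11, on the lower side of the loess scale. The brightest probe of Hnrnpab that was saturated on no array read 0.42 ± 0.040 (adjusted p = 1.31e-05 over probes), the opposite direction. For Hnrnpa3 that probe read 0.19 ± 0.099 (adjusted p = 0.00588 over probes), also the opposite direction. For Hnrnpk it read −0.01 ± 0.15 and did not pass. The dimmest probe of Hnrnpk, also unsaturated, read −0.62 ± 0.14 (adjusted p = 1.54e-05 over probes). Dimmer unsaturated probes of Hnrnpa3 read 0.97 ± 0.13 and −0.32 ± 0.14, and both passed over probes. Hnrnpk and Hnrnpa3 were singled out for their saturation after their values were seen. Without the 3 genes, 22 of 57 genes rose and 21 fell.

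**Figure D3:**
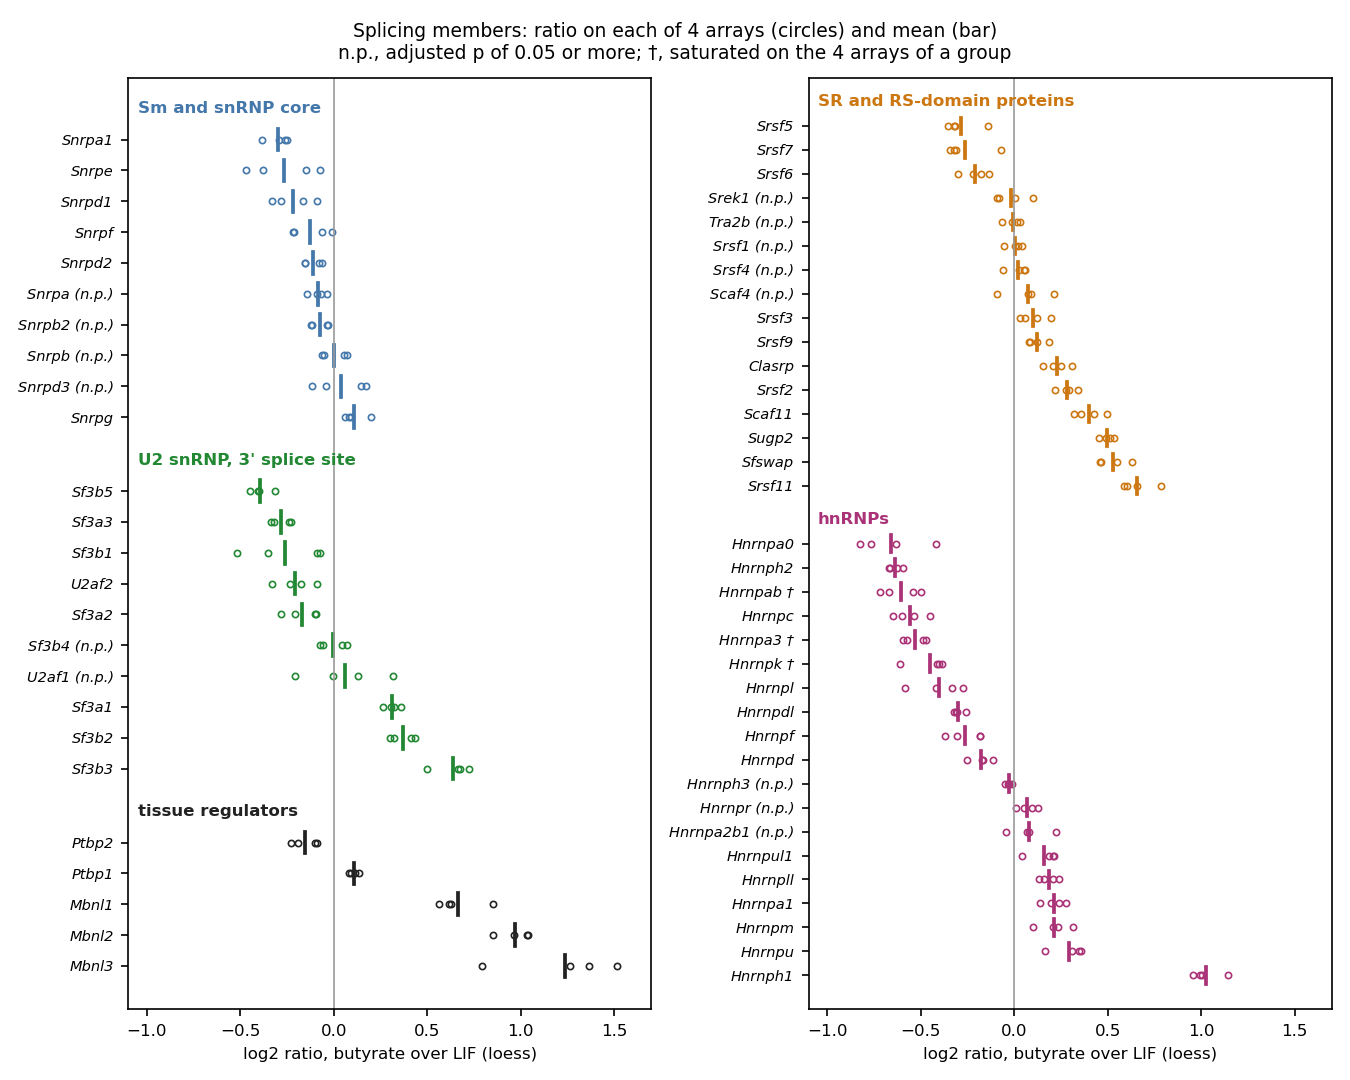
Log2 ratio of butyrate over LIF, with loess, of each tested splicing gene in groups by role, with a circle per array, a bar at the mean of 4 arrays, n.p. for an adjusted p of 0.05 or more and a dagger for a probe saturated on the 4 arrays of a group. Mbnl3, Mbnl2 and Hnrnph1 stand farthest to the right, between 0.97 and 1.24, the Sm genes lie between −0.30 and 0.11, and with median centring no gene passes on the lower side.

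The Sm and snRNP core genes, which encode the Sm ring proteins and the U1 and U2 particle proteins Snrpa, Snrpa1 and Snrpb2, had with loess the smallest median size of a ratio of the 5 roles, 0.11 (with median centring the hnRNPs did, at 0.33). Of 10 tested, 1 rose, 5 fell and 4 did not pass on the loess scale, with a median of −0.10, and with median centring 6 passed as higher and 0 as lower, at a median of 0.41 beside the 0.40 of all genes. Snrpa1, a protein of the U2 particle, had ratios of −0.26, −0.39, −0.25 and −0.30 and was 1.23-fold lower (−0.30 ± 0.062, adjusted p = 0.000156). Snrpe, an Sm ring protein, had ratios of −0.15, −0.38, −0.47 and −0.08 (−0.27 ± 0.19, adjusted p = 0.00653). Arrays 2 and 3 were the low ones there, and LIF and butyrate samples overlapped. Snrpd1, another ring protein, had ratios of −0.17, −0.33, −0.28 and −0.09 (−0.22 ± 0.11, adjusted p = 0.00331), with arrays 2 and 3 again the lowest. Snrpf had ratios of −0.06, −0.22, −0.21 and −0.01 (−0.13 ± 0.11, adjusted p = 0.0374), and Snrpg, the 1 gene that rose, 0.20, 0.06, 0.09 and 0.08 (0.11 ± 0.062, adjusted p = 0.0296). All 4 of the named decreases turned positive with median centring, at 0.22 to 0.38, but stayed below the 0.40 of all genes. The call of Snrpf is lost without array 1 (−0.15, adjusted p = 0.0529), array 2 (−0.094, adjusted p = 0.115) or array 3 (−0.097, adjusted p = 0.165). That of Snrpg is lost without array 1 (0.078, adjusted p = 0.119) or array 3 (0.11, adjusted p = 0.0833), and its ratio was −0.0095 in the authors' value table.

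The genes of the U2 particle and the 3′ splice site did not move as 1 complex. Of 10 tested, 3 rose and 5 fell on the loess scale with a median of −0.09, and with median centring 6 passed as higher and 0 as lower. Sf3b3, a large scaffold protein of SF3B, had ratios of 0.50, 0.72, 0.66 and 0.68 and was 1.56-fold higher (0.64 ± 0.097, adjusted p = 4.68e-06). Sf3b2, its partner at the branch site, had ratios of 0.32, 0.44, 0.41 and 0.30 (0.37 ± 0.067, adjusted p = 5.03e-05), and Sf3a1 of the SF3A part 0.31, 0.36, 0.32 and 0.26 (0.31 ± 0.040, adjusted p = 6.98e-05). These 3 genes were higher on every array and their samples did not overlap. Lower on the loess scale was Sf3b5, a small SF3B subunit, with ratios of −0.40, −0.45, −0.41 and −0.31 (−0.39 ± 0.058, adjusted p = 2.70e-05). Sf3a3 followed with −0.24, −0.34, −0.32 and −0.23 (−0.28 ± 0.0545, adjusted p = 0.000181). Sf3b1, which clamps the branch point helix, had ratios of −0.09, −0.07, −0.35 and −0.52 (−0.26 ± 0.22, adjusted p = 0.0138). Its arrays spread widely, and without array 3 it did not pass (−0.23, adjusted p = 0.0595). U2af2, the large U2AF subunit that binds the polypyrimidine tract, had ratios of −0.33, −0.09, −0.18 and −0.24 (−0.21 ± 0.10, adjusted p = 0.00332), while U2af1, the small subunit, did not pass (0.06 ± 0.22, adjusted p = 0.494). The 4 named decreases turned positive with median centring, at 0.15 to 0.36, but stayed below the 0.40 of all genes.

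Of 16 SR and RS-domain genes, 8 rose, 3 fell and 5 did not pass on the loess scale, with a median of 0.09, and with median centring 13 passed as higher and 0 as lower. Srsf11, an SR-related protein bound to U2AF, had ratios of 0.79, 0.66, 0.58 and 0.60 and was 1.58-fold higher (0.66 ± 0.091, adjusted p = 3.45e-06). Sfswap, the homologue of the fly suppressor of white apricot, had ratios of 0.63, 0.55, 0.46 and 0.46 (0.53 ± 0.080, adjusted p = 8.92e-06). Its other probes read 0.10 ± 0.15, which did not pass, 0.21 ± 0.099 and −0.15 ± 0.10 (adjusted p = 0.0209 over probes). Sugp2, a SURP and G-patch domain protein, had ratios of 0.45, 0.51, 0.53 and 0.49 (0.50 ± 0.034, adjusted p = 4.34e-06), and its 3 tested probes all rose. Scaf11, an SR-related protein named for its association with RNA polymerase II, had ratios of 0.43, 0.49, 0.36 and 0.32 (0.40 ± 0.076, adjusted p = 3.95e-05). These 4 increases were the largest of the group. None of the 4 had overlapping samples, and all stayed above the median of all genes with median centring. The array names the last 3 Sfrs8, Sfrs14 and Sfrs2ip.

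The 3 decreases among the SR genes were smaller. Srsf5 had ratios of −0.14, −0.32, −0.32 and −0.35 (−0.28 ± 0.095, adjusted p = 0.000512), but its second probe read −0.03 ± 0.20 and did not pass. Srsf7 had ratios of −0.07, −0.33, −0.35 and −0.31 (−0.26 ± 0.13, adjusted p = 0.00188), with array 1 apart from the rest. Srsf6 had ratios of −0.30, −0.18, −0.14 and −0.22 (−0.21 ± 0.070, adjusted p = 0.00145), but its second probe read 0.30 ± 0.12. With median centring the ratios were 0.29, 0.23 and 0.35 for Srsf5, Srsf7 and Srsf6, positive but below the median of all genes by 0.12, 0.18 and 0.055. Other SR proteins with the same kind of name rose slightly on the loess scale, Srsf2 by 0.28 ± 0.050, Srsf9 by 0.12 ± 0.050 and Srsf3 by 0.10 ± 0.073, and of those that did not pass Srsf1 had a ratio of 0.00 ± 0.041 and Srsf4 one of 0.02 ± 0.054. Their other probes did not all read the same. Those of Srsf2 read 0.25 ± 0.023, 0.03 ± 0.084 and −0.24 ± 0.069. That of Srsf4 read −0.30 ± 0.092, that of Srsf1 0.17 ± 0.088 and that of Srsf3 0.19 ± 0.071.

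Most splicing genes have several probes, and these often read unequal changes. In 38 genes with at least 2 tested probes, the brightest and the second brightest differed past an adjusted p of 0.05 in 28, where 66.3% of all 6086 such genes did, and in 25 of the 28 neither probe was saturated. The brightest was the lower one in 18 and the higher one in 10. The difference was at least 0.5 in 8 genes, and its median size was 0.27 against 0.20 for all genes. This difference is taken within an array, and 25 of the 38 genes passed with median centring too.

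In Sf3b3 the brightest probe read 0.64 and the second 1.95 ± 0.30, a difference of −1.31 ± 0.37 (adjusted p = 0.000157), and the dimmest read 2.03 ± 0.16. The 2 stronger probes, both annotated with a cDNA record and not with the reference transcript of the brightest, read 3.86-fold and 4.08-fold increases. In Hnrnpa2b1, the partner of Hnrnpa1 that did not pass by its brightest probe (0.08 ± 0.11, adjusted p = 0.155), the second probe read 0.97, 0.85, 0.82 and 0.94 on the 4 arrays (0.90 ± 0.069, adjusted p = 3.52e-07 over probes). The difference of −0.81 ± 0.11 had an adjusted p of 2.20e-05. The differences in Hnrnpab (−0.77 ± 0.052) and Hnrnpa3 (−0.72 ± 0.085) rest on saturated brightest probes. Other unsaturated probes of Hnrnpa3 read 0.97 ± 0.13 and −0.32 ± 0.14. In Scaf11 the brightest probe read 0.40 and the second, with a log2 signal of 7.05, −0.30 ± 0.19, a difference of 0.70 ± 0.13 (adjusted p = 5.42e-05). Next in size were Ptbp2, with a difference of −0.64 ± 0.22, Srsf11 with 0.64 ± 0.088 and Srsf6 with −0.51 ± 0.18. In Srsf11 the second probe read 0.02 ± 0.12 and did not pass, beside 0.66 for the brightest.

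The other genes whose 2 brightest probes differed were Hnrnpk, Tra2b, Hnrnpdl, Sf3a1, Hnrnpa1, Snrpb2, Hnrnpc, Srsf5, Srek1, Srsf1, Hnrnpu and Hnrnpd, with the brightest lower, and U2af1, Mbnl2, Hnrnpa0, Hnrnpul1, Srsf4, Snrpd3, Sfswap and Ptbp1, with the brightest higher. Over all tested probes, 11 of the 38 genes had passing probes of opposite sign on the loess scale, against 10.3% of all genes with at least 2 tested probes, and with median centring 0 of the 38 had, against 1.33%. On the loess scale they were Hnrnpa1, Hnrnpa3, Hnrnpab, Hnrnpdl, Hnrnpul1, Ptbp1, Ptbp2, Scaf11, Sfswap, Srsf2 and Srsf6, and Hnrnpab is among them only through its saturated probe. On that scale the share grows with the number of probes: among genes with 2 tested probes it was 3 of 20 against 6.99% of all genes, with 3 probes 3 of 11 against 16.5%, and with 4 or more 5 of 7 against 23%. Read singly, 93 of the 123 tested probes passed, 48 higher and 45 lower, where 72.2% of all probes did, 39.7% higher and 32.5% lower. With median centring 79 of the 123 probes were higher and 0 lower, where 55.4% and 4.84% of all probes were. Which transcript each probe reads was not tested.

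**Figure D4:**
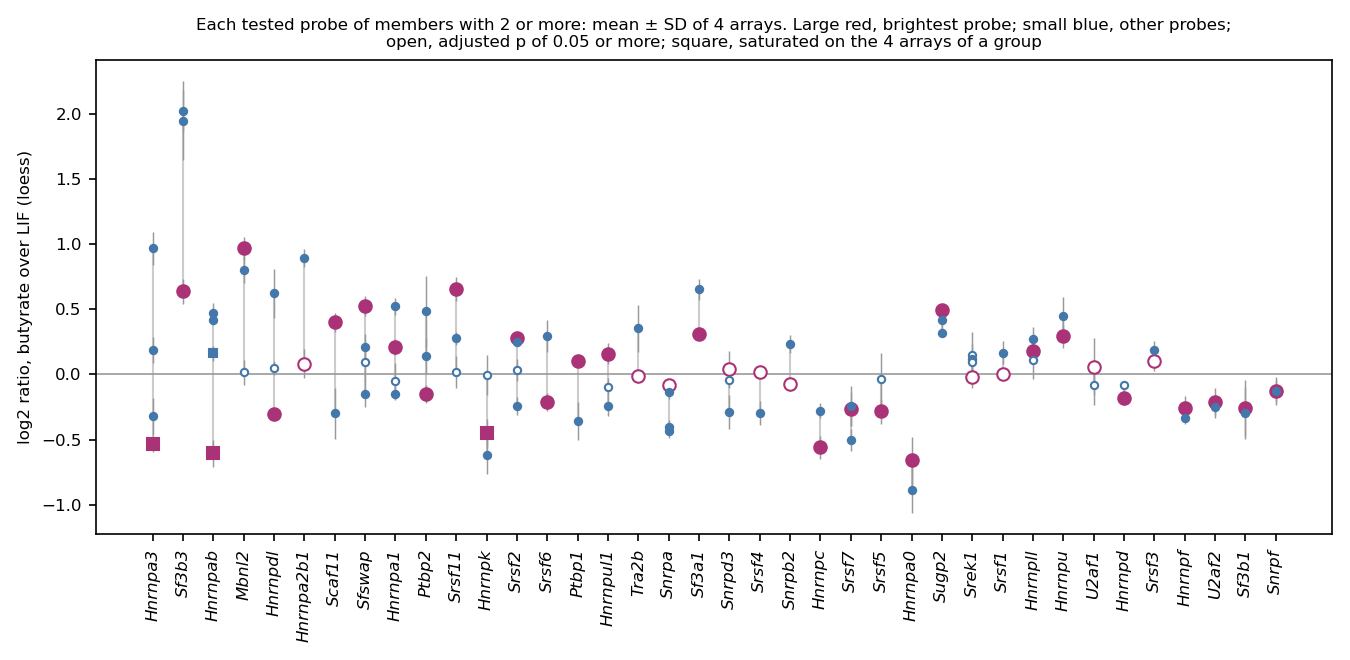
Log2 ratio with loess (mean ± SD of 4 arrays) of every tested probe of the 38 splicing genes with at least 2, with the brightest probe as a large red marker, other probes small and blue, open markers for an adjusted p of 0.05 or more and squares for probes saturated on the 4 arrays of a group. Genes at the left have the widest span, such as Sf3b3 from 0.64 to 2.03 and Hnrnpa3 from −0.53 to 0.97, and those at the right, such as Snrpf, have probes at nearly the same value; signs are those of the loess scale and negative ratios can turn positive with median centring.

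Position in the genome also moved with the ratios. Over all genes tested, the median ratio was 0.29 on chromosome 8, 0.21 on chromosome 11 and 0.18 on chromosome 19, and −0.01 over the other chromosomes. Of the 8 splicing genes on these 3 chromosomes, 6 rose, 1 fell and 1 did not pass, with a median of 0.34 against 0.22 for all genes there. Over all chromosomes 41.7% of genes were higher. The share on these 3 alone is not given here, so whether 6 of 8 departs from it cannot be read. They include all 3 of the U2 genes that rose (Sf3b3 on 8, Sf3b2 on 19, Sf3a1 on 11), as well as Sugp2 on 8 and Hnrnph1 and Srsf2 on 11. The 1 that fell, Hnrnpab on 11, was read from a saturated probe, and its brightest unsaturated probe read 0.42 ± 0.040. Elsewhere 16 of 52 splicing genes rose, 23 fell and 13 did not pass on the loess scale, with a median of −0.02. The Mbnl genes lie on chromosomes 3, 14 and X, where the medians of all genes were 0.01, 0.01 and 0.12. The part of chromosome position in the ratios was not tested.

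**Figure D5:**
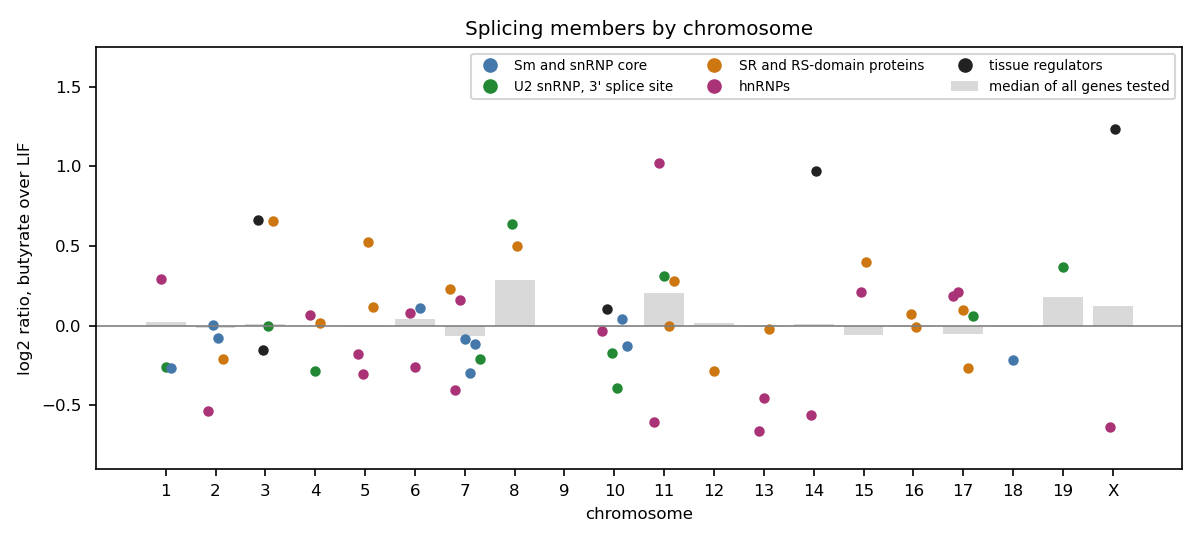
Log2 ratio with loess of each splicing gene by chromosome, coloured by role, with grey bars for the median of all genes tested on that chromosome. The bars of chromosomes 8, 11 and 19 stand at 0.29, 0.21 and 0.18. Of the 8 splicing genes there, 6 lie above 0 and passed, and the 1 that fell, Hnrnpab, was read from a saturated probe. With median centring many points below 0, such as Sf3b5, turn positive, though Sf3b5 stays below the median of all genes.

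Promoters are shown for the genes with 1 listed start that rose most (Mbnl3 and Mbnl2) and, among those not saturated, fell most (Hnrnpa0 and Hnrnph2), to set side by side the sequences upstream of genes that went opposite ways. Each is the 150 bases before the start in RefSeq, build GRCm38.p6, with capitals for CCAAT and GGGCGG on either strand.
Mbnl3, chrX:51205991-51206140, minus strand: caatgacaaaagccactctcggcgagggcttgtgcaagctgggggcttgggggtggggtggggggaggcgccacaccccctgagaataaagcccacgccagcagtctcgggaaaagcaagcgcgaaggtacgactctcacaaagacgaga
Mbnl2, chr14:120275519-120275668, plus strand: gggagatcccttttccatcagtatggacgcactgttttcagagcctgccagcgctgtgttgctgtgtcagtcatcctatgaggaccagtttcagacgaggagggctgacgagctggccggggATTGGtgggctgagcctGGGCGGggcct
Hnrnpa0, chr13:58128557-58128706, minus strand: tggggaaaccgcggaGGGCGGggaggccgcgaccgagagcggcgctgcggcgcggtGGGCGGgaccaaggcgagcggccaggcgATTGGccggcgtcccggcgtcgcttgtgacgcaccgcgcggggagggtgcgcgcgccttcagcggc
Hnrnph2, chrX:134601029-134601178, plus strand: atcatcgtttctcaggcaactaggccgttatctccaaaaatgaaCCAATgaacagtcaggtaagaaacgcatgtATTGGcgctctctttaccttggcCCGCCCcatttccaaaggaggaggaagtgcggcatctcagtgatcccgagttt
Mbnl3 has neither motif in this stretch, while Mbnl2, Hnrnph2 and Hnrnpa0 have both. In the 300-base windows of 54 splicing genes in the table (250 bases before to 50 after a start, any start, both strands), GGGCGG, the core of the GC box, was found in 41 (75.9%), against 65.7% of the tested genes and 38.2% of all 27025 genes in the table. CCAAT was found in 25 (46.3%, 42.8% and 41.1%, in the same order). CCGGAAG, the ETS core, was found in 17 (31.5%, 17.8% and 9.93%), and GCGCANGCG, from the NRF1 palindrome, in 15 (27.8%, 13.7% and 7.03%). By direction, the ETS core was in 7 of 21 higher and 7 of 21 lower genes, GGGCGG in 14 and 16, and TATAAA in 5 and 1. CACGTG, the E-box, was found in 9 (16.7%, 11.3% and 8.09%), ATGGCNGC, from the YY1 motif, in 9 (16.7%, 10.7% and 7.52%), and TATAAA in 7 (13.0%, 10.1% and 15.7%). Windows of a gene with several starts can overlap, no motif was kept apart from another, and a match is only a run of letters.

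Other genes of the pathway were read from 8 lists of 163 genes, of which 156 were tested. Of these, 51 rose, 64 fell and 41 did not pass on the loess scale, with a median of −0.05. The share that passed was 73.7% against 75% of all genes tested. Of all genes, 41.7% were higher and 33.3% lower with loess, and 56.7% and 4.64% with median centring. These shares stand beside the counts of each list below, the marker lists included. Among 26 snRNP-specific and tri-snRNP genes, 8 rose and 13 fell. Sart1, a tri-snRNP protein, rose by 0.76 ± 0.066, Prpf8, which lies at the catalytic centre, by 0.53 ± 0.16, and Ddx23, the helicase of the U5 particle, fell by 0.50 ± 0.19. Of 10 LSm genes, 2 rose and 4 fell: Lsm6 rose by 0.48 ± 0.059, and Lsm7 and Lsm2 fell by 0.63 ± 0.050 and 0.42 ± 0.063. Among 19 partners of early assembly, 9 rose and 3 fell, with Cherp (0.73 ± 0.069), Luc7l3 (0.66 ± 0.053) and Ddx39a (0.52 ± 0.068) the largest. With median centring, the passes of these lists were 14 higher and 1 lower, 6 and 0, and 16 and 0, and Lsm2 then had a ratio of 0.16.

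The catalytic step held the largest changes outside the chosen names. Of 26 Prp19 complex and catalytic step genes, 8 rose and 14 fell on the loess scale, and 14 were higher and 1 lower with median centring. Prpf19, the ubiquitin ligase that names the complex, had ratios of 1.53, 1.07, 1.63 and 1.45 and was 2.68-fold higher (1.42 ± 0.25, adjusted p = 1.89e-06), whereas Bcas2, a subunit of the same complex, had ratios of −0.94, −1.08, −1.11 and −1.21 and was 2.12-fold lower (−1.09 ± 0.11, adjusted p = 4.20e-07). Both passed with median centring too, at 2.02 and −0.56. Dhx16, a helicase of the activation step, fell by 0.75 ± 0.049. Of 11 exon junction complex genes 5 rose and 4 fell, among them Casc3 (0.79 ± 0.047), Alyref (0.50 ± 0.11) and Upf3b (−0.35 ± 0.14). Of 12 SMN complex and Sm assembly genes 2 rose and 6 fell, with Gemin6 (−0.53 ± 0.055), Gemin8 (−0.53 ± 0.037) and Gemin2 (−0.47 ± 0.062) the largest. With median centring the exon junction list had 7 higher and 0 lower, and the SMN list 7 and 0. The ratios of Upf3b, Gemin6 and Gemin2 then turned positive (0.24, 0.057 and 0.13), but stayed below the 0.40 of all genes.

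Of 8 tested SR protein kinases, 2 rose and 2 fell on the loess scale, and 7 were higher and 0 lower with median centring. Clk4, which phosphorylates SR proteins, rose by 0.89 ± 0.077, Clk2 fell by 0.37 ± 0.073 on that scale (0.22 with median centring) and Srpk1 rose by 0.18 ± 0.10. Of 44 other regulators tested, 15 rose and 18 fell, and 26 were higher and 1 lower with median centring. Ptbp3, the third Ptbp gene, was 1.96-fold higher (0.97 ± 0.064). Esrp2, an epithelial splicing regulator, had ratios of 0.86, 0.79, 0.91 and 0.94 and was 1.83-fold higher (0.87 ± 0.065, adjusted p = 4.17e-07), while its paralogue Esrp1 (0.01 ± 0.069, adjusted p = 0.858) and Rbfox2 (0.02 ± 0.031, adjusted p = 0.529) did not pass. Sart1 and Prpf19 lie on chromosome 19, Prpf8, Luc7l3, Casc3, Alyref and Clk4 on 11, and Cherp, Ddx39a, Lsm6 and Esrp2 on 8, the chromosomes named above. These genes all rose. Other listed genes there fell, such as Lsm11 (−0.32) and Rbfox3 (−0.30) on 11 and Elavl1 (−0.14) on 8, or did not pass, such as Lsm4 on 8. Large changes also lay elsewhere, with Bcas2 on 3, Dhx16 on 17 and Ptbp3 on 4. The share of listed genes on these chromosomes that rose is not given here, and the part of position was not tested.

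Markers of cell types moved with the comparison. Of 6 pluripotency markers 5 fell and 1, Nanog, rose (0.23 ± 0.054). Their summed signal was 63250 to 70169 in LIF and 45409 to 51650 in butyrate, and all 6 were well above background in both groups. Of 9 tested trophoblast markers 9 rose, from 32461 to 36001 summed in LIF to 120289 to 123623 in butyrate. That butyrate sum is mostly Krt8 and Krt18, saturated on all 4 butyrate arrays, and the other 7 markers summed to 5405 to 6298 in LIF and 17683 to 20103 in butyrate. Of 9 tested fibroblast markers 7 rose and 2 fell (2692 to 3002 in LIF, 12831 to 13496 in butyrate), and of 7 endoderm markers 6 rose (1093 to 1266 and 1752 to 1809). Elf5, Dcn and Afp did not reach that level on any LIF array, and Lum and Tpbpa were not tested. In such bulk RNA, fewer cells of a type and less RNA per cell cannot be told apart. With median centring the pluripotency markers had 1 higher and 4 lower, and the trophoblast, fibroblast and endoderm markers 9, 7 and 5 higher and 0 lower. The part of these markers in the splicing ratios was not tested. Over all spots, median signals ranged from 62.8 to 66.0 in the LIF channel and from 110 to 111 in the butyrate channel, and the number of arrays limits the precision.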

How the data were processed

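The 8 deposited scanner files are 4 distinct ones, 1 per array. They hold, per the file headers, the intensity of each spot and channel with a processed signal and a log10 ratio, read by the authors with Agilent Feature Extraction 9.1 per the submitters' processing notes. The authors' value table holds log2 values whose correlation with the log2 processed signal is at least 0.99956. Its normalization is not stated in the labels or headers.

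Mean signals were background-corrected (normexp, offset 50) and normalized by loess with limma 3.58.1 in R 4.3.3. This offset shrinks the folds of dim probes. Control spots had weight 0, 14 flagged spots were left out, and replicate spots averaged. Of 41174 probes, 25661 were tested (well above background in either channel on at least 3 arrays), giving 17189 genes, each read from its brightest tested probe. Probes were named in RefSeq, assembly GRCm38.p6, by accession (22951), symbol (6659) or synonym (3109), and 8455 kept the file's name. The test was lmFit and eBayes on 4 log2 ratios against 0, with Benjamini-Hochberg adjustment over genes. Adjusted p-values given for further probes are over all probes. The ratio takes the array out as a block; deviations of same-numbered samples correlated at 0.15 to 0.30. The steps were tested on simulated data. The genes and lists were chosen with earlier results of these data known. Genes named are up to 4 increases and 4 decreases per role, all tissue regulators, genes with unequal probes, and up to 3 per list. A gene that this rule picks is not reported here. Further genes were chosen after seeing values. Tried as alternatives were other background corrections, scalings, filters, probe rules, variance models, blocks, thresholds and the authors' table. The unsaturated-probe alternative and those on single probes were chosen after seeing the data. Figures used matplotlib 3.10.9 in Python 3.11.15.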

Additional observations from a re-analysis of the deposited data

Results flagged for a closer look

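In 3 of 60 splicing genes 1 array stood apart from the other 3, by the gap to its nearest neighbour over the whole range, and chance flags about 1 in 20 groups. Srsf7 had a ratio of −0.073 on array 1, nearer 0 than on the others. Hnrnpk, whose brightest probe is saturated in butyrate, had −0.61 on array 4, the lowest of its values. Hnrnpul1 had 0.040 on array 4, below its other ratios.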

How the results depend on the processing

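The count of 46 splicing genes that passed lay between 39 and 54 under the alternatives read per gene (54 with the probe of smallest p). It was 39 with an adjusted p of 0.01, and 39 with the genes of chromosomes 8, 11 and 19 left out (16 higher, 23 lower). With each probe read singly, 93 probes passed, 48 higher and 45 lower. With median centring and no loess the 22 higher and 24 lower became 39 and 0. The pairing by array was also left out: with no replicate block, 44 splicing genes and 12506 genes in all passed, against 46 and 12888, and with a random block 45 and 12953.

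Leaving out each array in turn gave 39 to 46 splicing genes (18 to 22 higher, 21 to 24 lower), 11568 to 12802 genes and 16371 to 18407 probes, and 3515 to 3768 genes with unequal probes, 23 to 27 of them splicing genes. Without array 3, 7 calls were lost, and no gene that passed changed sign.

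Reversals are given for the genes named by role, unless stated otherwise. Median centring reversed the sign of Snrpa1 (0.22), Snrpe (0.31), Snrpd1 (0.34), Snrpf (0.38), Sf3b5 (0.15), Sf3a3 (0.19), Sf3b1 (0.34), U2af2 (0.36), Srsf5 (0.29), Srsf7 (0.23), Srsf6 (0.35) and Ptbp2 (0.43). Among the other splicing genes that passed, it also reversed Hnrnpl (0.17), Hnrnpdl (0.29), Hnrnpf (0.18), Hnrnpd (0.33), Sf3a2 (0.055) and Snrpd2 (0.44). These are reversals against 0: all but Ptbp2 and Snrpd2 stayed below the median of all genes under that scaling, 0.40. The authors' value table reversed Snrpg (−0.0095) and Ptbp1 (−0.039). The mean over probes reversed Srsf6 (0.044), Hnrnpab (0.11), Ptbp2 (0.16) and Ptbp1 (−0.13), and the probe with the smallest p Srsf6 (0.30), Ptbp2 (0.49) and Ptbp1 (−0.36). The brightest unsaturated probe, an alternative chosen after seeing the data, reversed Hnrnpab (0.42) and, outside the genes named by role, Hnrnpa3 (0.19). Beyond the construction of each alternative, the cause was not tested. Mbnl1, Mbnl2, Mbnl3 and Hnrnph1 kept their direction and passed under each alternative run. Median centring moved the median of all genes from 0.03 to 0.40, so an increase could hardly turn under it.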
